A study of Mus musculus with 20 samples.

Results

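A laser can deliver the same energy to a cell as a short, intense exposure or as a long, weaker one. That comparison is held by 6 of the 20 bulk RNA-seq libraries of the series, 3 of the setting I2-E2 and 3 of the setting I0-E2, all taken by their titles from the first of the 2 batches that the labels give, which has 15 libraries. N2A (Neuro2A) is a mouse neuroblastoma line that grows as a dividing, neuron-like culture. Cells were grown in glass-bottom plates, and whole wells were scanned with a single pulsed near-infrared laser through a 20X objective and lysed 1 h later. In I2-E2 the laser ran at 100 mW, an average intensity of 238.58 mW/µm2, and stayed 2 µs on each pixel. In I0-E2 it ran at 20 mW, an average intensity of 47.72 mW/µm2, and stayed 10 µs on each pixel. Both settings therefore gave a fluency, the energy per area, of 47.72 J/cm2. Intensity was 5.0-fold higher in I2-E2 and the dwelling time shorter by the same factor, so the effects of intensity and of dwelling time cannot be told apart in this comparison. The batch also holds 3 unexposed control libraries (NC), given beside the exposed ones below, and the settings I0-E0 and I0-E4 with 3 libraries each, at the intensity of I0-E2 with 2 and 20 µs per pixel. The labels number the libraries of a setting without saying that each came from its own well, and p-values measure the spread between these libraries, which may be technical.

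Light absorbed by a cell can warm it, generate reactive oxygen species and, where the light is intense enough for several photons to be absorbed at once, ionise molecules. Cells answer such stresses with distinct sets of genes. Misfolded protein releases the heat shock factor HSF1, which switches on chaperone genes. Oxidants free NRF2, the product of Nfe2l2, which raises antioxidant genes such as Hmox1 and Nqo1. Damaged DNA stabilises p53, which raises Cdkn1a and Mdm2. The integrated stress response, which slows translation, acts through the factor ATF4, which raises Ddit3. Many stimuli raise the immediate-early genes Fos and Jun within the hour. The genes below were chosen for these pathways, for the cell cycle and for the organelles that such exposure could reach.

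HSF1 binds inverted repeats of the letters GAA in promoters, and NRF2 binds the antioxidant response element. Promoters of these 2 kinds are shown for genes whose values follow. They are RefSeq sequences on build GRCm38.p6, each running from 250 bases before to 50 bases after the start of transcription, with the heat shock element in capitals in the first 3 and the antioxidant response element in the last. The heat shock element was searched as GAANNTTC or TTCNNGAA and the antioxidant response element as TGACNNNGC, on both strands, and overlapping matches join into longer runs of capitals. Hsph1 encodes a large HSP70-type chaperone, Hspe1 the mitochondrial co-chaperonin HSP10, Chordc1 a co-chaperone of HSP90, and Srxn1 sulfiredoxin, which repairs oxidised peroxiredoxins. The first 3 promoters hold 3, 3 and 5 matches of the heat shock element, and that of Srxn1 holds 1 match of the antioxidant response element. The Hsph1 promoter also holds 2 matches of the antioxidant response element, left in lower case.
Hsph1, 1 of 2 promoters listed, chr5:149636266-149636565, minus strand: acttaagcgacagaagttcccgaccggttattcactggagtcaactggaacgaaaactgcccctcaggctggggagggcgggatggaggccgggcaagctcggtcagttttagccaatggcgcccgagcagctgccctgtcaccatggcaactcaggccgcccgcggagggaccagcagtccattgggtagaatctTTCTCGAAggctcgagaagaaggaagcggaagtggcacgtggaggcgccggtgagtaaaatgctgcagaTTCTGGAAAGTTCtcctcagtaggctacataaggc
Hspe1, chr1:55087898-55088197, plus strand: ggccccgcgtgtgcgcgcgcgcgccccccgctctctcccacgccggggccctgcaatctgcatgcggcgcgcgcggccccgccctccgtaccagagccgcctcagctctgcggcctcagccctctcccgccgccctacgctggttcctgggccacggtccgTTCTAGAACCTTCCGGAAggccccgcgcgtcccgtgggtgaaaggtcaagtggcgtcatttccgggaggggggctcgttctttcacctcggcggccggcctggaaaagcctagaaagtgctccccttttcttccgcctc
Chordc1, chr9:18292017-18292316, plus strand: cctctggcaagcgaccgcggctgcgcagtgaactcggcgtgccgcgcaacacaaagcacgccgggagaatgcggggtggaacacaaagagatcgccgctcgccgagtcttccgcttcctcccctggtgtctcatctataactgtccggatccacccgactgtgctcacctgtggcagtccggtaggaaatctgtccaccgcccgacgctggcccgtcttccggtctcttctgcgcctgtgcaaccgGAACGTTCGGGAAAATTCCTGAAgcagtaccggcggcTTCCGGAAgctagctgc
Srxn1, chr2:152105274-152105573, plus strand: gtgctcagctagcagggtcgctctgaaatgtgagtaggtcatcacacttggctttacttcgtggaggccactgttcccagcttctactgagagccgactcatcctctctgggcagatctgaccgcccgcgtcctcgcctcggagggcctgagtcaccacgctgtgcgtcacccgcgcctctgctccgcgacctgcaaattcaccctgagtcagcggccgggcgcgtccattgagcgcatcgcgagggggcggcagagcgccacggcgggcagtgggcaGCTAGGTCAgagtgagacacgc

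The 6 libraries held 5808532 to 8636798 estimated counts each. Of 34083 genes, 12296 had enough counts to be tested. Levels are given as CPM, the counts of a gene scaled to a fixed library total, and differences as log2 of I2-E2 over I0-E2, with the standard error (SE) of a fit over all 15 libraries. By edgeR's quasi-likelihood test with Benjamini-Hochberg adjustment, 0 genes passed an adjusted p of 0.05, which is 0% of those tested, and the lowest adjusted p was 0.309. Before adjustment, 645 genes lay under a p of 0.05, or 5.25%, where uniform p-values would put 614.8, or 5.0%. Of these, 329 were higher in I2-E2, or 2.68% of the genes tested, and 316 lower, or 2.57%. Fitting by DESeq2 instead gave 4 calls and limma-voom gave 0, and testing without a filter on low counts gave 125, of which 104 were genes with under 95% of their 31-base sequence words to themselves. Of those 125 genes, 8 had been removed by the filter, and the others were tested with the filter and not called. The 3 I2-E2 libraries all lay above the 3 I0-E2 libraries in 667 genes, or 5.42%, and all below them in 610, or 4.96%, which is 10.4% in either direction. The counts of named groups below are read against these shares.

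The comparison had the depth to bound most differences. The 95% interval of the difference lay inside 1.5-fold in both directions for 9355 genes, or 76.1%, and inside 2-fold for 10753, or 87.5%. Among the 9079 genes at a mean of 10 CPM or more over the 15 libraries, those shares were 96.4% and 99.3%. An estimate past 2-fold was found in 172 genes, which had a median level of 1.26 CPM, and 6 of them reached 10 CPM. Across all genes tested the median difference was 0.01 on the log2 scale, with quartiles at -0.07 and 0.09.

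**Figure D1:**
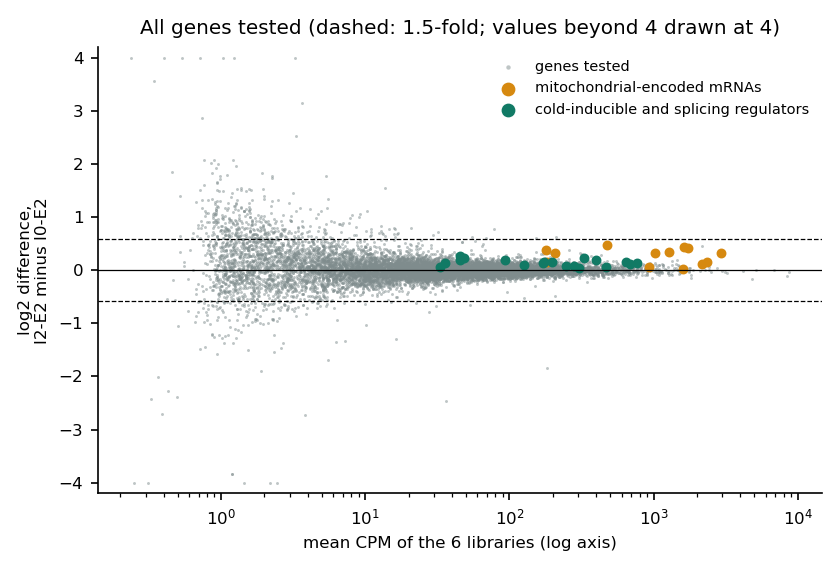
Each grey point is 1 of the 12296 genes tested, by its mean CPM over the I2-E2 and I0-E2 libraries (log axis) and its log2 difference, I2-E2 minus I0-E2, with dashed lines at 1.5-fold. The spread narrows with level, and the 13 mitochondrial-encoded mRNAs (orange) and 19 cold-inducible and splicing regulators (green) all sit above 0.

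Markers of stress and of the cell cycle came first. Of 30 such genes, 29 were tested, 1 of which is not reported here, and the other 28 lay between -0.23 and 0.26 on the log2 scale. None of the 28 was under an unadjusted p of 0.05, beside 5.25% of all genes tested, and 15 lay above 0, beside 52.4%. Of the 28, 27 had a 95% interval inside 1.5-fold, beside 76.1% of all genes and 96.4% of those at 10 CPM or more. Over the 28 intervals, the lowest bound was -0.63 and the highest 0.57. The exception among these 28 was Nqo1, an NRF2 target that encodes a quinone reductase. Its level was 6.53, 6.58 and 6.16 CPM in the I2-E2 libraries and 5.59, 8.65 and 8.34 CPM in the I0-E2 libraries, a difference of -0.23 with an interval from -0.63 to 0.17. The I0-E2 libraries lay on both sides of the I2-E2 libraries.

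**Figure D2:**
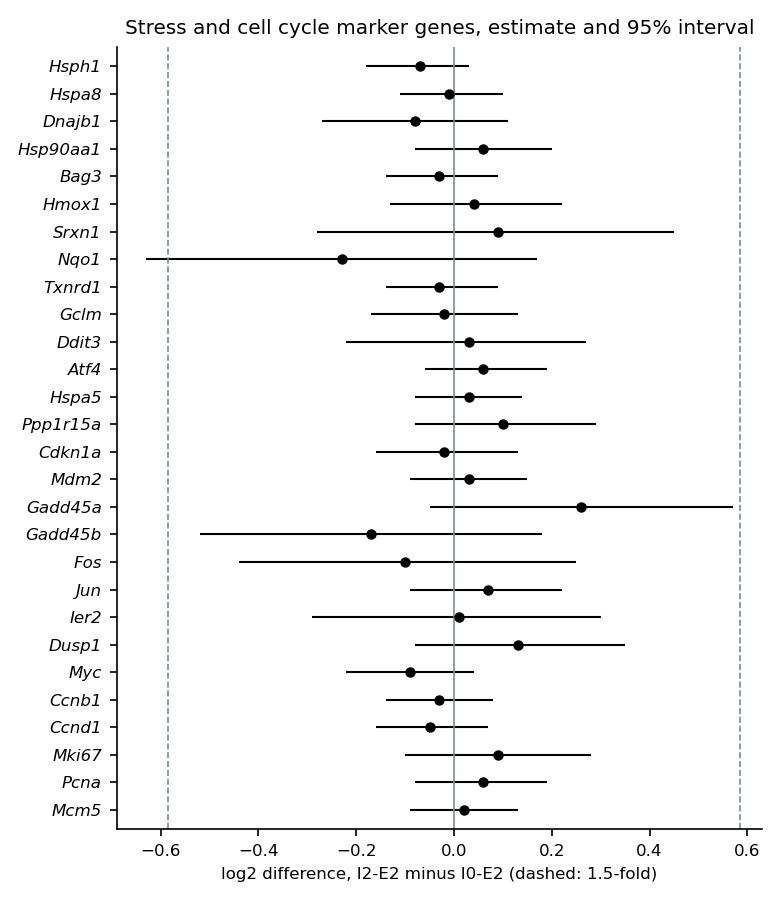
Log2 difference, I2-E2 minus I0-E2, of the 28 marker genes, with points for estimates and bars for 95% intervals from the fit of 15 libraries, and dashed lines at 1.5-fold. Only the bar of Nqo1 crosses a dashed line, and 0 lies inside every bar.

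Among the heat shock chaperones, Hsph1, whose promoter is the first shown, was the one marker whose groups did not overlap. Over all genes tested, 10.4% had groups that did not overlap. Hsph1 stood at 477, 449 and 477 CPM in I2-E2 and at 485, 502 and 490 CPM in I0-E2. The higher intensity thus had the lower level, by -0.07 ± 0.05 (SE), with an interval from -0.18 to 0.03 and an adjusted p of 0.952. The NC libraries, at 491, 474 and 466 CPM, overlapped both groups. Dnajb1, a co-chaperone that is among the most heat-inducible genes, had 66.2, 65.8 and 62.4 CPM in I2-E2 and 59.8, 75.1 and 70.6 CPM in I0-E2, and Bag3, which hands misfolded clients to autophagy, had 205, 218 and 219 CPM against 214, 224 and 216 CPM. Both overlapped between the groups, with differences of -0.08 ± 0.09 and -0.03 ± 0.05. Hspe1 and Chordc1, the other chaperone genes with promoters above, differed by 0.08 ± 0.11 and -0.04 ± 0.07, with adjusted p-values of 0.972 and 0.979.

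Of 32 chaperone genes, 29 were tested, 12 lay above 0 and 17 below, the median was -0.01, 0 were under an unadjusted p of 0.05 in either direction, and 28 intervals lay inside 1.5-fold. The highest was Cdc37, the HSP90 co-chaperone for kinases, at 0.19 ± 0.11, and the lowest Cryab, a small heat shock protein, at -0.25 ± 0.17. The 3 genes not tested include the classical inducible HSP70 genes. Hspa1a had 0 counts and Hspa1b 2 counts over the 45917708 counts of the 6 libraries, and the small heat shock gene Hspb1 had 4. For Hspa1a a count of 0 allows a level of up to 0.0653 CPM, which is 3 counts over the 6 libraries and covers counting error only, and reads of these near-identical genes can be split between them. On the length-scaled TPM measure, the constitutive HSP70 gene Hspa8 had a mean of 1760 TPM in I2-E2 and 1830 TPM in I0-E2, but only 56.45% of its sequence words are its own, so that reads of its copies can count for it.

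A heat shock element was found in 15.1% of 32851 RefSeq promoters. Counted by gene, with a match in any of its promoters, it was found in 14 of the 25 chaperone genes with a promoter in the set. Of 9332 tested genes with a promoter, 13.8% had a match. Those with a match had a median difference of 0.004 and those without also 0.004. The antioxidant response element was found in 12.4% of promoters. Counted by gene, it was found in 16.7% of those tested and in 10 of 29 antioxidant genes, with medians of -0.000 and 0.005 for genes with and without it. The cyclic AMP response element, searched as TGACGTCA, was found in 1.79% of promoters, and the AP-1 motif that FOS and JUN bind, searched as TGANTCA, in 7.81%, with medians of 0.007 and 0.001 for genes with a match and 0.004 without for each. For the heat shock element the quartiles were -0.07 and 0.10 with a match and -0.07 and 0.09 without. A match describes letters in the window and not a bound site.

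Of 34 oxidative stress genes, 33 were tested, 16 lay above 0 and 17 below, with a median of -0.00, and 32 intervals were inside 1.5-fold. Hmox1, the heme oxygenase induced by NRF2, had 51.8, 56.3 and 49.5 CPM in I2-E2 and 47.4, 48.6 and 56.3 CPM in I0-E2, a difference of 0.04 ± 0.08 with an interval from -0.13 to 0.22. The groups overlapped. Srxn1, whose promoter is shown, had 12.9, 11.6 and 9.59 CPM against 10.8, 9.52 and 11.5 CPM, also overlapping, with 0.09 ± 0.17. The thioredoxin reductase gene Txnrd1 and the glutathione synthesis gene Gclm differed by -0.03 ± 0.06 and -0.02 ± 0.07. The one member under an unadjusted p of 0.05 was Abcc1, an exporter of glutathione conjugates, with 81.8, 78.4 and 89.9 CPM in I2-E2 and 94.6, 92.5 and 89.9 CPM in I0-E2. Its groups met at 89.9 CPM, and its difference of -0.14 ± 0.06 had an adjusted p of 0.945.

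For the integrated stress response and the response to misfolding in the endoplasmic reticulum, 26 and 21 genes were tested, with medians of 0.03 and 0.01. Ddit3, which encodes CHOP, had 18.1, 16.9 and 17.2 CPM in I2-E2 and 17.8, 18.9 and 14.6 CPM in I0-E2. Atf4, the factor upstream of it, had 580, 626 and 543 CPM against 539, 567 and 564 CPM, and Hspa5, the chaperone BiP, had 861, 934 and 832 CPM against 834, 877 and 866 CPM. All 3 overlapped between the groups, with differences of 0.03 ± 0.12, 0.06 ± 0.06 and 0.03 ± 0.05. Sesn2, a stress-induced inhibitor of mTORC1 signalling, was the one gene of both lists under an unadjusted p of 0.05. Its level was 42.6, 39.5 and 36.4 CPM in I2-E2 and 31, 35.8 and 35.1 CPM in I0-E2, so all I2-E2 libraries were the higher, by 0.21 ± 0.08 with an adjusted p of 0.945. Against NC the fitted difference of Sesn2 was 0.04 ± 0.08 in I2-E2 and -0.17 ± 0.08 in I0-E2, values that share the NC libraries.

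Of 27 p53 and DNA damage genes, 23 were tested, with 12 above 0 and a median of 0.00. Cdkn1a, the p53-induced inhibitor of cyclin-dependent kinases, had 41.8, 44.3 and 47.1 CPM in I2-E2 and 43.0, 45.6 and 46.4 CPM in I0-E2, with an interval from -0.16 to 0.13. Mdm2, the ubiquitin ligase that degrades p53, had 147, 140 and 145 CPM against 145, 137 and 144 CPM. Both overlapped. Members under an unadjusted p of 0.05 were Gadd45g and Ppm1d, higher in I2-E2, and Plk3, lower. Gadd45g, a stress sensor of the growth arrest family, had 39.0, 43.2 and 32.1 CPM in I2-E2 and 27.6, 30.4 and 31.4 CPM in I0-E2, which is 0.34 ± 0.15 with an adjusted p of 0.945. The groups of Gadd45g did not overlap, but the lowest I2-E2 and the highest I0-E2 library were close. The NC libraries had 23.3, 22.7 and 28.8 CPM of Gadd45g. Fitted differences of Gadd45g against NC were 0.61 ± 0.15 in I2-E2 and 0.27 ± 0.16 in I0-E2, values that share the NC libraries. Its relatives Gadd45a and Gadd45b differed by 0.26 ± 0.15 and -0.17 ± 0.17, each overlapping. Plk3, a stress-responsive kinase, had 23.5, 24.7 and 25.9 CPM against 28.1, 28.6 and 29.7 CPM, -0.22 ± 0.09, without overlap. Fitted differences of Plk3 against NC were -0.02 ± 0.09 in I2-E2 and 0.20 ± 0.09 in I0-E2. DNA repair genes had a median of 0.04 over 33 genes, with Mre11a, a subunit of the double-strand break sensor, at 0.17 ± 0.08 and Xpa, the damage verifier of excision repair, at -0.48 ± 0.21. The adjusted p was 0.949 for Mre11a and 0.945 for Xpa.

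Immediate-early and ERK feedback genes had 30 tested members and a median of -0.05, with 13 above 0. Fos had 7.36, 6.58 and 5.57 CPM in I2-E2 and 5.97, 7.64 and 7.16 CPM in I0-E2, and Jun had 53.5, 61.1 and 53.9 CPM against 52.8, 53 and 54.4 CPM. Both overlapped, at -0.10 ± 0.16 and 0.07 ± 0.07. Dusp1, which encodes the phosphatase that switches off MAP kinases, differed by 0.13 ± 0.10, and Ier2 by 0.01 ± 0.14. Fosb, a partner of JUN, was the one member under an unadjusted p of 0.05. It had 0.556, 0.889 and 0.355 CPM in I2-E2 and 0.994, 2.00 and 1.53 CPM in I0-E2, so that all I2-E2 libraries were lower, by -1.37 ± 0.53 with an adjusted p of 0.945. That difference rested on 49 counts over the 6 libraries.

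The genes of cell death and of membrane repair showed scattered values. Among 22 tested apoptosis regulators, with a median of 0.03, Bad, a BH3-only gene, had 27.4, 31.8 and 26.5 CPM in I2-E2 and 20.3, 24.4 and 25.8 CPM in I0-E2, higher without overlap at 0.27 ± 0.12. Bmf, another BH3-only gene, was lower at -0.72 ± 0.27, with 6.94, 3.55 and 3.32 CPM against 7.46, 6.26 and 9.04 CPM, and overlapped. Each had an adjusted p of 0.945. Among 22 tested plasma membrane repair genes, with a median of -0.02, Anxa4, a calcium-dependent membrane binder, had 4.72, 3.55 and 4.03 CPM in I2-E2 and 5.47, 8.02 and 6.23 CPM in I0-E2. Anxa4 was lower without overlap, by -0.67 ± 0.27 with an adjusted p of 0.945. Chmp4c, the highest of the list, had 1.81, 1.78 and 1.42 CPM against 1.37, 0.752 and 0.587 CPM. It was higher without overlap, by 0.87 ± 0.42 with an adjusted p of 0.949.

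Cell cycle genes lay close to 0. All 29 S phase and all 29 G2 and mitosis genes were tested, each list had a median of -0.01, and every interval of both lists lay inside 1.5-fold. Ccnb1, the mitotic cyclin B1, had 521, 490 and 519 CPM in I2-E2 and 535, 524 and 502 CPM in I0-E2. Mki67, the proliferation marker, had 680, 663 and 817 CPM against 748, 656 and 628 CPM, and Pcna, the replication clamp, had 378, 379 and 339 CPM against 342, 349 and 363 CPM. All 3 overlapped, at -0.03 ± 0.05, 0.09 ± 0.09 and 0.06 ± 0.06. Cenpa, the centromeric histone, was higher in all I2-E2 libraries at 89.6, 108 and 93.9 CPM against 88.3, 81.4 and 83.4 CPM, a difference of 0.20 ± 0.08 with an adjusted p of 0.945. Because RNA was measured in bulk, fewer cells in a phase and less RNA per cell cannot be told apart.

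Metabolic lists were also centred near 0. Cholesterol synthesis had a median of 0.01 over 24 genes, while each setting had a median of -0.09 against the shared NC libraries. Its members under an unadjusted p of 0.05 were Dhcr7 and Nsdhl, which encode late enzymes of the pathway. Dhcr7 had 51.1, 46.7 and 47.5 CPM in I2-E2 and 54.9, 59.6 and 55.4 CPM in I0-E2, lower without overlap by -0.23 ± 0.07. Nsdhl had 13.1, 14.9 and 14.1 CPM against 17.5, 16.3 and 16.9 CPM, lower without overlap by -0.27 ± 0.13. The adjusted p-values were 0.945 and 0.946. Against NC the fitted difference of Dhcr7 was -0.21 ± 0.07 in I2-E2 and 0.02 ± 0.07 in I0-E2. Glycolysis and hypoxia genes had a median of -0.00 over 25 genes, with Gapdh at -0.15 ± 0.07 and overlapping groups.

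In 2 lists every tested member lay above 0, against 52.4% of all genes tested. One is the set of 13 mRNAs encoded by mitochondrial DNA, which specify core subunits of the respiratory chain and of ATP synthase. Their median difference was 0.32, from 0.02 for mt-Co3 to 0.47 for mt-Nd6, and 6 of the 13 were higher in all I2-E2 libraries than in any I0-E2 library, beside 5.42% of all genes. None passed the adjusted threshold, and 3 were under an unadjusted p of 0.05 on the higher side, beside 2.68% of all genes. The 13 genes are transcribed together from a small genome and are not independent. Moreover 12 of the 13 have under 95% of their sequence words to themselves, so that reads may be split with nuclear copies. The exception is mt-Nd1, with 100% of its own words, which differed by 0.05 ± 0.14 with overlapping groups. For the extremes, mt-Co3 has 0.13% of its own words and mt-Nd6 92.64%.

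The members did not move by the same amount. mt-Nd5, a proton-pumping subunit of complex I, had 1905, 1929 and 1811 CPM in I2-E2 and 1298, 1434 and 1433 CPM in I0-E2, a difference of 0.44 ± 0.13 with an adjusted p of 0.945. mt-Nd6, also of complex I and encoded on the opposite strand, had 572, 624 and 470 CPM against 384, 401 and 420 CPM, 0.47 ± 0.15 with an adjusted p of 0.945. mt-Cytb, the cytochrome b of complex III, had 3186, 3052 and 3553 CPM against 2456, 2791 and 2575 CPM, 0.32 ± 0.17 with an adjusted p of 0.949. In these 3 genes no I2-E2 library met the range of I0-E2, and the same held for mt-Nd2, mt-Nd4 and mt-Nd4l. mt-Co3, a subunit of cytochrome oxidase, had 1674, 1525 and 1662 CPM against 1409, 1699 and 1676 CPM, and mt-Nd1 had 982, 958 and 921 CPM against 805, 974 and 974 CPM. Those 2 genes overlapped between the groups, at 0.02 ± 0.14 and 0.05 ± 0.14.

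Among the groups of the batch, I2-E2 lay near the unexposed libraries. The 13 mRNAs took 1.82%, 1.75% and 1.84% of the counts in the I2-E2 libraries and 1.38%, 1.57% and 1.61% in the I0-E2 libraries. In the unexposed NC libraries the share was 1.78%, 1.6% and 1.82%, which overlaps I2-E2 and lies partly above I0-E2. The I0-E0 libraries had 1.24%, 2.03% and 1.51% and the I0-E4 libraries 1.36%, 1.9% and 1.34%, so that libraries of a single setting spanned more than the gap between I2-E2 and I0-E2. The median of the 13 fitted differences against NC was 0.03 in I2-E2 and -0.18 in I0-E2. Without I0-E2 replicate 1, the library with the lowest share, the median difference between the settings was 0.24 and 11 of 13 lay above 0. For 36 nuclear genes of oxidative phosphorylation subunits the median was 0.02, 23 lay above 0, and 0 were under an unadjusted p of 0.05. Their medians in the I2-E2 libraries lay apart, at 0.04, 0.17 and -0.17. The median difference ran from -0.06 without I2-E2 replicate 2 to 0.09 without I2-E2 replicate 3.

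The other list is the cold-inducible RNA-binding proteins with the SR proteins and kinases that regulate splicing. It was put together with earlier results of these libraries known, in which some members were higher in I2-E2 than in NC, so its count is not independent support. All 19 members lay above 0, from 0.04 for Srsf7 to 0.26 for Cirbp, with a median of 0.14. None passed the adjusted threshold. On the higher side 6 were under an unadjusted p of 0.05, beside 2.68% of all genes, and 7 did not overlap, beside 5.42%. The size was small, since all 19 intervals lay inside 1.5-fold, as did 76.1% of all genes tested and 96.4% of those at 10 CPM or more.

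Srsf10, a splicing regulator that responds to heat by dephosphorylation, had 347, 368 and 353 CPM in I2-E2 and 326, 296 and 285 CPM in I0-E2, higher without overlap by 0.23 ± 0.08. Srsf5, an SR protein gene, had 435, 457 and 387 CPM against 377, 382 and 364 CPM, higher without overlap by 0.19 ± 0.07. Clk4, a kinase of SR proteins, had 46.0, 53.3 and 46.1 CPM against 41.5, 41.3 and 43.8 CPM, higher without overlap by 0.19 ± 0.07. The adjusted p of each of these 3 genes was 0.945. Clk1, a kinase of the same family, had 44.7, 56.5 and 56.1 CPM against 46.6, 41.2 and 46.2 CPM, and overlapped at 0.23 ± 0.10. Cirbp, the cold-inducible RNA-binding protein, had 53.9, 56.2 and 38.7 CPM against 39.9, 42.3 and 40.9 CPM. The third I2-E2 library of Cirbp lay below every I0-E2 library, and the difference was 0.26 ± 0.15 with an adjusted p of 0.949. Rbm3, its relative, had 799, 884 and 733 CPM against 742, 745 and 720 CPM, which overlapped at 0.13 ± 0.07.

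One library carried much of this value. The median level of the list relative to the I0-E2 mean was 0.12, 0.26 and 0.07 in the I2-E2 libraries and -0.01, -0.03 and 0.00 in the I0-E2 libraries. Without I2-E2 replicate 2 the median difference was 0.06, with 19 of 19 members above 0 and 1 under an unadjusted p of 0.05. In NC the values were -0.05, 0.03 and 0.08, and in I0-E4, at the intensity of I0-E2 with a longer dwelling time, 0.10, 0.06 and -0.00. Against NC the median fitted difference of the list was 0.08 in I2-E2 and -0.00 in I0-E2. The lowest I2-E2 library thus lay within the range of unexposed and of low-intensity libraries.

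**Figure D3:**
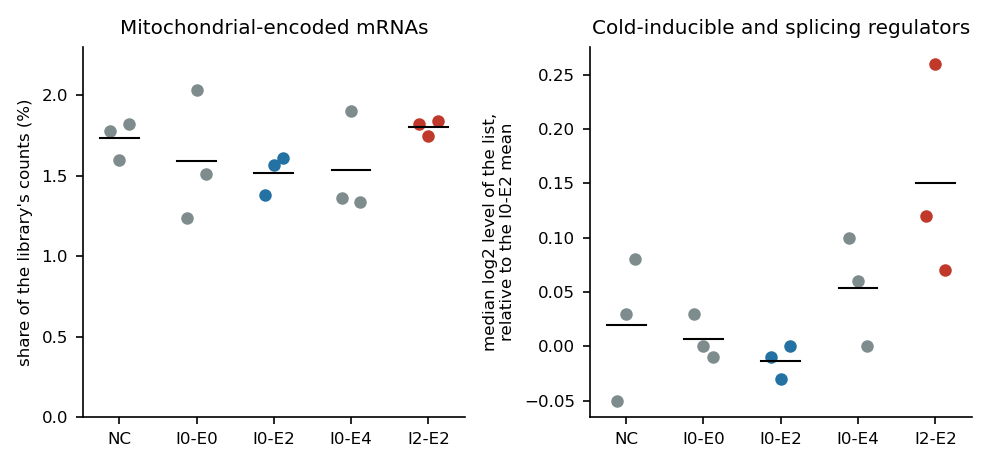
Left, share of each library's counts in the 13 mitochondrial-encoded mRNAs (%), and right, median log2 level of the 19 cold-inducible and splicing regulators relative to the I0-E2 mean, with 1 point per library and a line at the mean of 3 libraries. On the left the I2-E2 libraries (1.75% to 1.84%) lie above the I0-E2 libraries and within the range of I0-E0 (1.24% to 2.03%), and on the right I2-E2 replicate 2 stands highest at 0.26.

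The I2-E2 libraries varied more among themselves than the I0-E2 libraries. Over the 9079 genes at 10 CPM or more, the median standard deviation of log2 CPM was 0.114 in I2-E2, 0.0824 in I0-E2 and 0.0783 in NC, with 0.111 in I0-E4. Depth also differed. The libraries held 7298229, 5808532 and 8417609 counts in I2-E2 and 8016573, 8057786 and 8636798 in I0-E2. They held 8322567, 8257765 and 6460014 in NC and 6692637, 5623685 and 8280080 in I0-E4. Whether depth shaped the spread was not tested. Library pairs within I2-E2 differed by a median of 0.118 to 0.166 on the log2 scale, and pairs of 1 I2-E2 and 1 I0-E2 library by 0.0916 to 0.149. The spread went with gene length. In the 2010 genes with the shortest transcripts the I2-E2 libraries had medians of 0.03, 0.14 and -0.09 relative to the I0-E2 mean, and in the 2501 with the longest -0.02, -0.08 and 0.07, so that replicates 2 and 3 deviated in opposite directions.

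Some lists of short genes followed that order of libraries. The mitochondrial-encoded list, also of short genes, did not, with medians of 0.25, 0.23 and 0.25 in the I2-E2 libraries. The 76 cytosolic ribosomal protein genes, with medians of 0.02, 0.23 and -0.17 in the I2-E2 libraries, had a median difference of 0.03, and 31 proteasome subunits, with 0.04, 0.18 and -0.11, had 0.04. In both lists the I2-E2 libraries lay on either side of the I0-E2 libraries. The median of the ribosomal list ran from -0.07 without I2-E2 replicate 2 to 0.11 without I2-E2 replicate 3, and 75 of the 76 share sequence with other genes. With a smooth trend on transcript length removed, the medians of the mitochondrial-encoded and of the cold-inducible and splicing lists were 0.30 and 0.13, close to the values without that step.

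**Figure D4:**
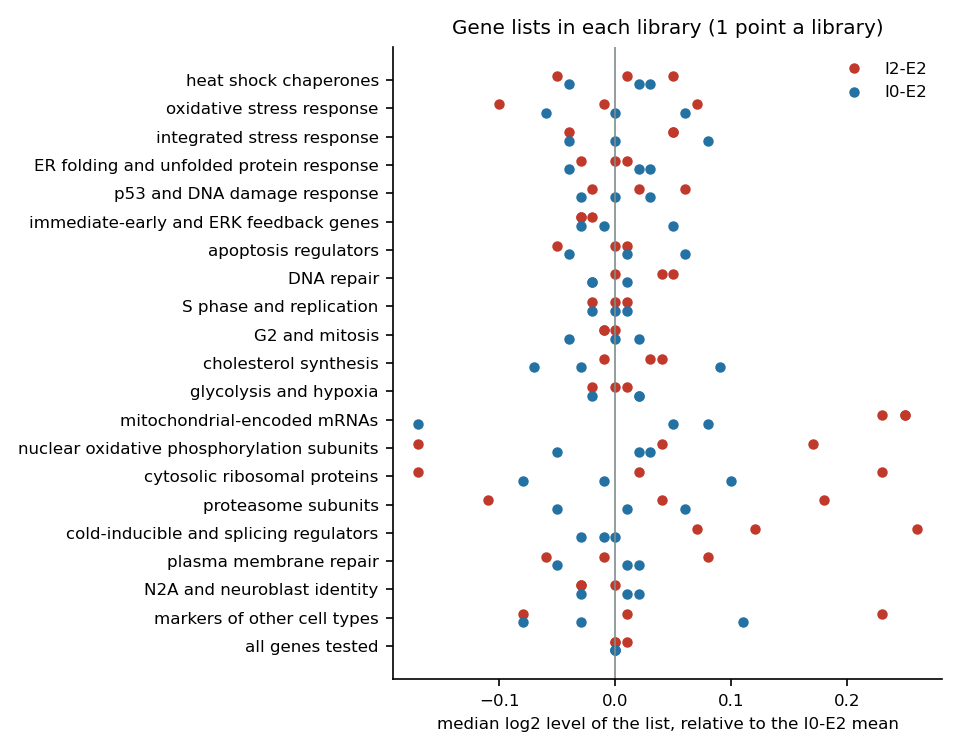
Median log2 level of each of 20 gene lists, and of all genes tested, in the 3 I2-E2 (red) and 3 I0-E2 (blue) libraries, relative to the mean of the I0-E2 libraries. The mitochondrial-encoded and the cold-inducible and splicing lists are those with the I2-E2 libraries farthest to the right of all I0-E2 libraries, while the ribosomal and proteasome lists spread widely within I2-E2.

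Beyond the lists, the genes with the smallest p among those without overlap are given as not passing. Safb2, a scaffold attachment factor that binds RNA and chromatin, had 62.9, 73.2 and 68.0 CPM in I2-E2 and 48.0, 46.9 and 45.0 CPM in I0-E2. It was higher by 0.54 ± 0.10 with an adjusted p of 0.309, and the NC libraries at 47.6, 45.5 and 62.6 CPM reached from the one group almost to the other. Safb2 has 92.08% of its sequence words to itself. Col7a1, which encodes collagen VII, had 8.61, 11.2 and 10.1 CPM against 5.59, 4.39 and 6.11 CPM, higher by 0.88 ± 0.17 with an adjusted p of 0.309. Here NC, at 5.65, 6.54 and 7.11 CPM, lay below all I2-E2 libraries. Pnrc1, a nuclear receptor coactivator also tied to mRNA decapping, had 10.8, 10.1 and 10.5 CPM against 4.10, 5.26 and 6.58 CPM. Pnrc1 was higher by 0.98 ± 0.22 with an adjusted p of 0.576, and NC, at 4.33, 4.72 and 7.73 CPM, again lay below I2-E2.

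Lower in I2-E2 were Nabp1, a single-stranded DNA binding protein of the damage response, and Ubash3b, a phosphatase that restrains tyrosine kinase signalling. Nabp1 had 23.1, 27.9 and 27.1 CPM in I2-E2 and 34.4, 34.0 and 37.5 CPM in I0-E2, lower by -0.44 ± 0.10 with an adjusted p of 0.576. Ubash3b had 12.5, 12.6 and 16.1 CPM against 19.0, 20.3 and 19.5 CPM, lower by -0.50 ± 0.11 with an adjusted p of 0.604. NC had 37.9, 35.2 and 31.5 CPM of Nabp1 and 17.4, 18.9 and 16.5 CPM of Ubash3b, in both genes above every I2-E2 library. Otub2, a deubiquitinase, and Pskh1, a protein kinase, followed at -0.51 ± 0.13 and -0.56 ± 0.15, each with an adjusted p of 0.945.

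The remaining genes of this kind with sequence of their own were low in level. Il18bp, which encodes a secreted antagonist of interleukin 18, had 5.69, 5.69 and 6.75 CPM in I2-E2 and 2.61, 3.88 and 2.70 CPM in I0-E2, higher by 0.98 ± 0.26 with an adjusted p of 0.945. Acox3, a peroxisomal oxidase of branched fatty acids, had 4.86, 4.62 and 4.85 CPM against 2.24, 2.76 and 2.58 CPM, higher by 0.92 ± 0.22 with an adjusted p of 0.808. Adgrl3, an adhesion receptor of synapses, had 1.81, 2.31 and 1.78 CPM against 0.373, 0.626 and 0.352 CPM, and Ankrd53 had 2.50, 4.44 and 3.43 CPM against 1.86, 0.626 and 0.587 CPM. Their differences of 2.08 ± 0.53 and 1.73 ± 0.40 had adjusted p-values of 0.945 and 0.646. Hdhd3 and Mrgpre were lower, at -0.86 ± 0.24 and -0.70 ± 0.20, each with an adjusted p of 0.945.

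Several of the leading genes cannot be separated from their copies. Fam220a is annotated as 2 overlapping genes on chromosome 5. The first, ENSMUSG00000083012 at chr5:143548708-143564531, had 20.7, 22.9 and 17.4 CPM in I2-E2 and 7.83, 6.39 and 6.46 CPM in I0-E2, higher by 1.55 ± 0.31. The second, ENSMUSG00000118332 at chr5:143548706-143564531, had 22.6, 25.6 and 23.6 CPM against 34.4, 40.0 and 39.8 CPM, lower by -0.67 ± 0.13. Each had an adjusted p of 0.309, they moved in opposite directions, and 39.0% and 1.17% of their sequence words are their own. The first stood at 22.4, 7.27 and 21.8 CPM in NC, so that unexposed libraries covered both levels. An annotated copy of Nnt, the mitochondrial NADPH-producing transhydrogenase, and the predicted gene Gm12397 have 0% of their own words, and their differences of 0.63 ± 0.16 and -1.90 ± 0.41 are given as uncertain.

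**Figure D5:**
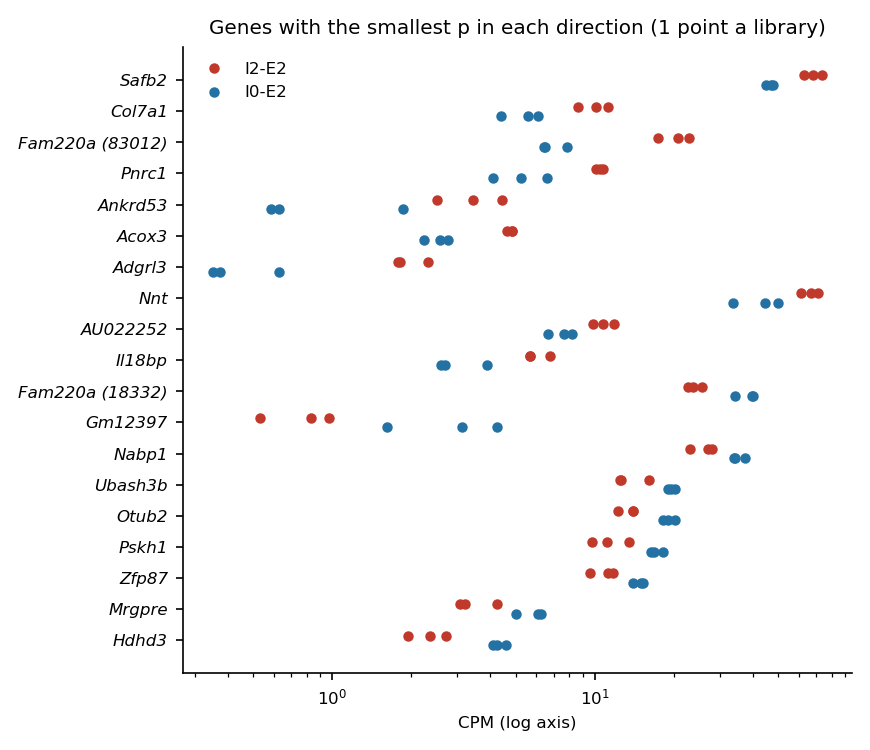
CPM (log axis) of the genes with the smallest p in each direction among those whose groups do not overlap, 10 higher and 9 lower in I2-E2, with 1 point per library. None passed the adjusted threshold, and Fam220a appears with each of its 2 annotated genes.

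The cells kept the profile of the line in both settings. The 25 genes of N2A and sympathetic neuroblast identity, such as Hand2 and Prph, summed to 5480 to 5570 CPM in the I2-E2 libraries and 5270 to 5590 CPM in the I0-E2 libraries. Markers of fibroblasts, blood, epithelial, endothelial, glial and muscle cells, 27 genes in all, summed to 25 to 30 CPM and 23.1 to 29.9 CPM. Of these, 9 had 0 counts in every I2-E2 library and 8 in every I0-E2 library, among them the macrophage genes Adgre1 and Lyz2 and the haemoglobin genes Hba-a1 and Hbb-bs. The 5 tested members of that list had a median of -0.02.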

How the data were processed

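The authors quantified each library with Salmon and deposited, per transcript, an estimated count, a TPM value and an effective length. The estimated counts carry decimals and no scaling across libraries, and the deposited TPM values are those counts scaled by length to a fixed sum. Sources used here do not give Salmon's version, options or transcript release. Counts were summed per gene of GENCODE vM21 (GRCm38) and rounded, and transcripts not found there, 0.664% to 0.7153% of a library, were left out. Genes were filtered with filterByExpr (minimum count 10), scaled by TMM and tested with edgeR's quasi-likelihood test over the 15 libraries of batch 1, with group as the only factor, as I2-E2 minus I0-E2. The fit had 10 residual degrees of freedom and a common biological coefficient of variation of 8.26%. p-values were adjusted by Benjamini-Hochberg over all genes tested. Batch 2 was not used here.

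Genes were named by a rule: the 10 with the smallest p in each direction whose groups do not overlap, a list of stress and cell cycle markers, and the extremes of each gene list, with some genes not reported here. Other list members are named because they lay under an unadjusted p of 0.05 or as examples, after their values were seen. Members and lists were chosen with earlier results of these data known. Per-library list levels use log2(CPM + 0.5). Sequence shared between genes was measured as 31-base words of the transcripts. Whether the replicate numbers pair the libraries is not known. Deviations of same-numbered libraries correlated by 0.0740, -0.0035 and -0.0463, and those of different-numbered libraries by -0.212 to 0.203. Deviations within a group depend on each other, so these values cannot decide the question. Software was Python 3.11.15 with matplotlib 3.10.9, pandas 2.3.3 and numpy 2.4.6, and DESeq2 1.42.0, limma 3.58.1 and edgeR 4.0.16 under R 4.3.3. Precision is limited by depth, and intervals assume the spread shared by the 15 libraries.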

Additional observations from a re-analysis of the deposited data

How the results depend on the processing

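Against 0 calls in the fit reported above, scaling by DESeq2's size factors or by library totals, a stricter filter, limma-voom and leaving out any 1 of the 6 libraries (range 0 to 0) also gave 0 calls. The settings that gave calls were no filter on low counts, with 125, DESeq2, with 4, the 6 libraries alone, with 1, and the replicate block in the 6 libraries alone, with 7. The calls of the last 3 settings all were genes under 95% of their own sequence words (the Fam220a genes, Safb2 and predicted genes), as were 104 of the 125. The replicate block in the fit of 15 libraries gave 0 calls and 612 genes at an unadjusted p under 0.05. That count was 1115 with no filter, 413 with DESeq2 and 478 to 1126 when a library was left out, with 1126 reached without I2-E2 replicate 3. The cause was not tested. All 20 leading genes kept their direction in every setting where they were tested, 13 of them under the stricter filter. They had been picked for groups that do not overlap, so this outcome was largely fixed by the choice and is no support. The median of the cold-inducible and splicing list ran from 0.06 without I2-E2 replicate 2 to 0.17, and that of the mitochondrial-encoded list from 0.24 to 0.38. The counts of members of these lists under each setting were added after seeing the data. Members under an unadjusted p of 0.05 ran from 1 to 8 in the first and from 2 to 9 in the second. Genes under 10 CPM are limited by depth: their intervals mostly reach past 1.5-fold.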
